A study of Mus musculus with 15 samples.

Results

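The mitochondrial genome (chrM) was represented by 12 of the 44598 regions of one deposited table of ATAC-seq counts and by 12 of the 38036 regions of a second table. ATAC-seq counts the fragments that a transposase cuts from accessible DNA. The members are all regions whose chromosome is given as chrM, with no selection on their values. The first table was deposited for the *Smarcd1* knockdown comparison (KD table) and the second for the overexpression comparison (OE table). Both tables hold the same 15 libraries over different region sets.

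The libraries came from 6DT1, a mouse mammary tumor cell line, grown in monolayer on plastic with no treatment beyond antibiotic selection. There were 3 libraries in each of 5 groups. EV cells carried an empty vector, OE cells a *Smarcd1* cDNA vector, Scr cells a scrambled short hairpin RNA (shRNA), and KD4 and KD6 cells an shRNA against *Smarcd1*, which encodes a subunit of the BAF chromatin-remodeling complex. The vectors were introduced by transduction and the lines were kept under antibiotic selection. The methods of the study give puromycin for the shRNA lines and blasticidin for the overexpression lines, so the drug differed with the kind of vector. The drug of the Scr and EV controls was not named separately. The labels name the genotype of both control lines as wildtype, and do not tell which hairpin of the study KD4 or KD6 carries. They describe replicates as seeded from different passages on subsequent days, but in a protocol written for RNA, so p-values here measure the spread between libraries. The region at *Smarcd1* itself was not identified, because no gene annotation of the build of the files (mm39) was used. Total counts ranged from 16176518 to 23703753 per library in the KD table and from 22668622 to 31225956 in the OE table.

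Mitochondrial DNA is a small circular genome present in many copies per cell. It is packaged by TFAM and not by histones, and its nucleoids lie outside the nucleus, where BAF complexes act. In ATAC-seq it is cut readily, and the fraction of fragments from it depends on the copy number of the genome and on how well cytoplasm is removed when nuclei are prepared. Its genes encode ribosomal RNAs, transfer RNAs and core subunits of the respiratory chain and of ATP synthase. These counts cannot tell apart more mitochondrial genomes per cell, more accessible genomes and more mitochondria carried over with the nuclei. The labels of these libraries also describe RNA extraction, and if reads came in part from RNA, counts would hold transcript abundance as well; the source of the reads was not tested.

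The 12 regions covered 6672 bases of chrM in the KD table and 9118 bases in the OE table. The 6 genes named here were located by their chrM intervals, which are identical in the RefSeq annotation of GRCm38.p6. These were *mt-Rnr2* (chrM:1094-2675), the large ribosomal RNA; *mt-Nd1* (chrM:2751-3707) and *mt-Nd4* (chrM:10167-11544), subunits of complex I; *mt-Co1* (chrM:5328-6872) and *mt-Co3* (chrM:8607-9390), subunits of complex IV; and *mt-Cytb* (chrM:14145-15288), cytochrome b of complex III. Regions inside one of these genes numbered 7 in the KD table, with 5 outside all of them, and 6 in the OE table, with 6 outside. Of the regions outside, one lay before *mt-Rnr2* (chrM:202-642 in the KD table, chrM:135-838 in the OE table), on the side where the RefSeq order places *mt-Rnr1*, the small ribosomal RNA. A pair lay between *mt-Co1* and *mt-Co3* (chrM:7131-7536 and chrM:7897-8471 in the KD table), where RefSeq places the genes of another complex IV subunit, COX2, and of ATP synthase, ATP8 and ATP6. One lay between *mt-Nd4* and *mt-Cytb* (chrM:11923-12539 in the KD table, chrM:11900-13474 in the OE table), an interval that holds ND5 and ND6 of complex I. One lay beyond *mt-Cytb* (chrM:15697-15984 in the KD table), on the side of the noncoding control region. The OE table alone had a region between *mt-Nd1* and *mt-Co1* (chrM:4037-4232), where RefSeq places ND2, a further complex I subunit.

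Regions on chrM were among the most heavily counted of the series. The *mt-Co1* region of the KD table (chrM:5429-6639) had the highest mean count of all regions, at 12083 CPM over 15 libraries, where CPM are counts scaled to the same total in every library, with the total taken over the regions of that table. The wider of the *mt-Rnr2* regions (chrM:1403-1929) ranked 2, at 7476 CPM, and the *mt-Nd1* region (chrM:2858-3587) ranked 3, at 4847 CPM. The median region of that table had 5.68 CPM. The chrM region with the fewest counts, chrM:15697-15984, had 187 CPM and ranked 698. The *mt-Rnr2* region of the OE table (chrM:1195-2581) averaged 14761 CPM and ranked 5, and the *mt-Co1* region (chrM:5438-6598) averaged 8840 CPM and ranked 9.

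Per kilobase of covered sequence, the ribosomal RNA gene had the highest mean density of the 6 genes and *mt-Nd4* the lowest, in both tables. *mt-Rnr2* averaged 10561 CPM per kb in the KD table and ranged from 7575 to 13835 over the 15 libraries. *mt-Co1* followed at 9978 CPM per kb, between 6984 and 14408, then *mt-Nd1* at 6640, *mt-Cytb* at 3996, *mt-Co3* at 3426 and *mt-Nd4* at 1931 CPM per kb. The order of the genes was the same in the OE table, from 10643 CPM per kb at *mt-Rnr2* to 1549 CPM per kb at *mt-Nd4*. Ranges of neighbouring genes overlapped across libraries, but within a library the order was nearly fixed. *mt-Co1*, *mt-Nd1*, *mt-Cytb*, *mt-Co3* and *mt-Nd4* stood in this order in all 15 libraries of both tables. *mt-Rnr2* was above *mt-Co1* in 9 of 15 libraries of the KD table, the exceptions being the 3 EV libraries, KD4 2, KD4 3 and KD6 1, and in 14 of 15 of the OE table, the exception being EV 1. The share of each gene that lay within a region also differed, from 38.4% of *mt-Nd4* to 78.4% of *mt-Co1* in the KD table and from 43.3% of *mt-Nd4* to 87.7% of *mt-Rnr2* in the OE table. *mt-Rnr2* was covered unevenly in the KD table, with 14187 CPM per kb in chrM:1403-1929 and 2826 CPM per kb in chrM:2316-2562.

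**Figure D1:**
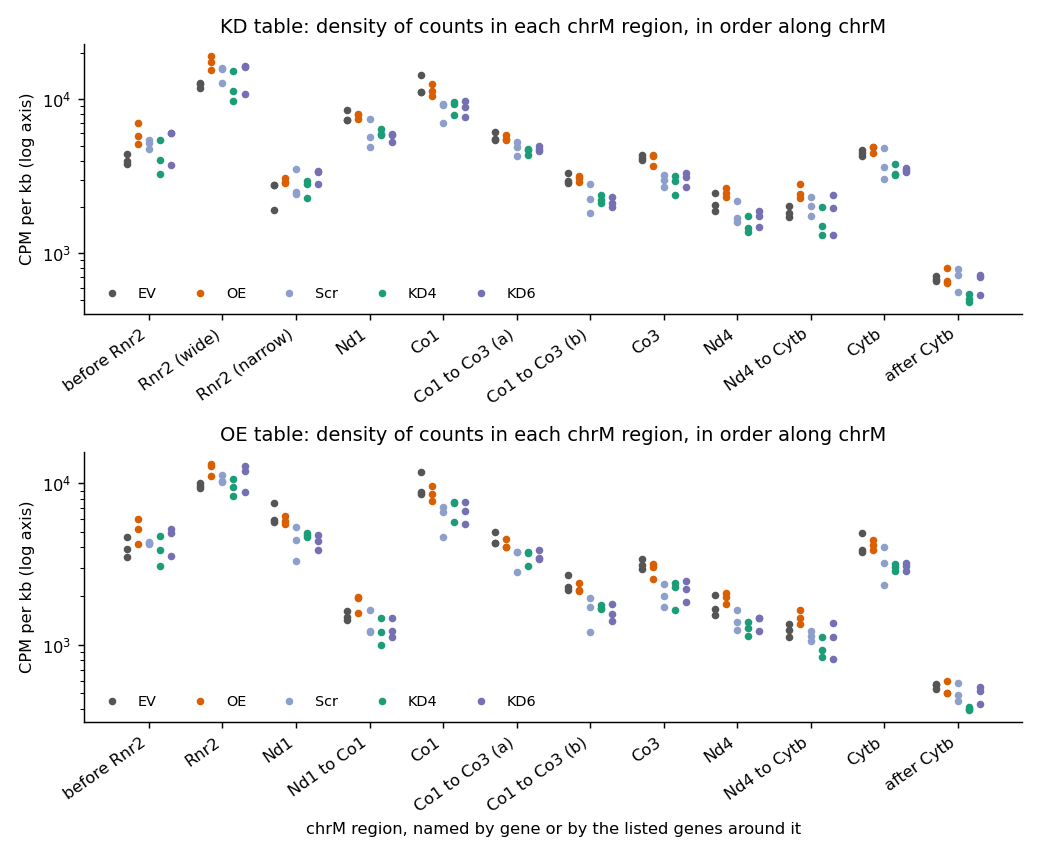
Density of counts in each chrM region (CPM per kb, log axis), with regions in order along chrM and named by gene or by the listed genes around them; each point is 1 library, colored by group, for the KD table (top) and the OE table (bottom). The region beyond *mt-Cytb* was the lowest in both tables, with a mean of 649 CPM per kb in the KD table and 498 CPM per kb in the OE table.

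A set of 3 of the 12 regions, in both tables, could not be assigned to chrM alone. These were chrM:7131-7536, chrM:7897-8471 and chrM:8789-9265 of the KD table, the last of them the *mt-Co3* region, and each had a partner on chromosome 1, at chr1:24654122-24654529, chr1:24653206-24653774 and chr1:24652387-24652866. Each partner was the best correlated of 23836 nuclear regions of the KD table. The 3 were picked for a partner on chromosome 1 with nearly equal counts and a high correlation. Ratios and correlations therefore describe this choice, while positions within chromosome 1 did not enter it. The count of a chrM region divided by that of its partner lay between 0.967 and 1.01 in every library, and the Pearson correlation of log2 CPM over the 15 libraries was at least 0.998. The partners lay in reversed order. The start of each chrM region plus the end of its partner, and the end plus the start, gave nearly the same sum, between 24661652 and 24661677. For the OE table the corresponding ratios lay between 0.956 and 1.02 and the sums between 24661657 and 24661669. No mm39 sequence was used, so whether the stretches share sequence was not tested. RefSeq lists 1 pseudogene on chromosome 1 with a mitochondrial synonym, Gm10925, but its position was not compared with these regions, since the builds differ. With partner counts nearly equal in every library, signal from chrM and from chromosome 1 cannot be told apart in these 3 regions.

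The mirrored stretch reached further. Of the 6 regions in chr1:24650733-24655157 of the KD table, chr1:24654836-24655157 mirrored to a position that overlapped the *mt-Co1* region by 138 bases. Another, chr1:24650733-24651083, mirrored to a position that overlapped the *mt-Nd4* region (chrM:10901-11429) by 26 bases. No chromosome 1 region mirrored onto the regions of *mt-Rnr2*, *mt-Nd1* or *mt-Cytb* in either table. Fractional expected counts were frequent on chrM, in regions with and without a chromosome 1 partner. In the KD table, whole values numbered 5 of 15 in chrM:7131-7536, 6 in chrM:7897-8471 and 10 in chrM:8789-9265, which had partners. Without a partner, chrM:202-642 and chrM:14477-15100 each had 4 of 15. Only 58.9% of the chrM values were whole numbers in the KD table, 106 of 180, against 95.1% over all regions, and 51.7% in the OE table, 93 of 180, against 95%.

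**Figure D2:**
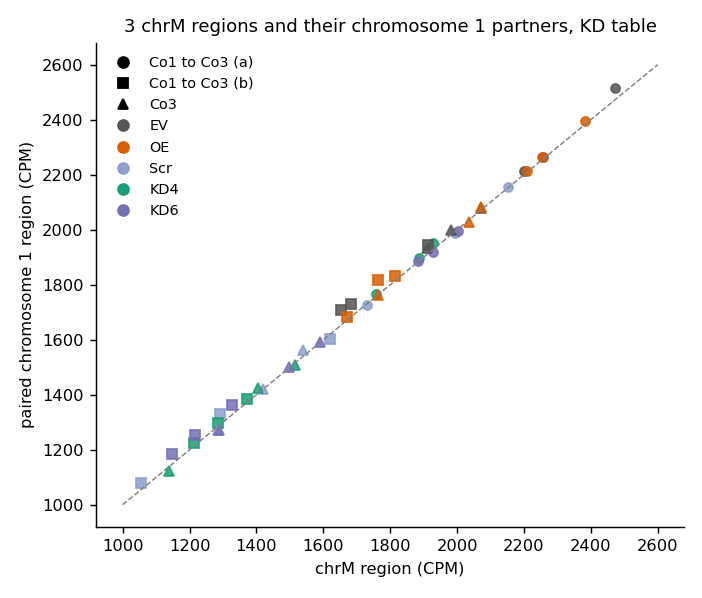
Counts (CPM) of 3 chrM regions (horizontal axis) against their chromosome 1 partners (vertical axis) in the KD table, 1 point per library and region, with shape for the region and color for the group; the dashed line marks equal counts. All points lie along the line, with chrM to chromosome 1 ratios from 0.967 to 1.01.

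The first comparison was of the whole of chrM, as the percentage of a library's counts that fell in its 12 regions. This share in the KD table was 3.87, 3.41 and 3.18% in the Scr libraries, 3.42, 3.25 and 3.16% in KD4 and 3.31, 3.64 and 3.42% in KD6. The knockdown libraries lay inside or just below the range of the Scr libraries. The means were 3.49% ± 0.353 (SD, n = 3) in Scr and 3.37% ± 0.167 (SD, n = 6) in the knockdown lines together. The difference of -0.121 percentage points did not pass (exact permutation p = 0.512, two-sided, in a design that could reach 0.0119). By line, KD4 averaged 3.28% ± 0.135 (SD, n = 3) and KD6 3.46% ± 0.166 (SD, n = 3). Exact permutation tests gave p = 0.5 for KD4 against Scr, p = 1.0 for KD6 against Scr and p = 0.3 for KD6 against KD4, and with 3 libraries on each side no p can go below 0.1. Adjusted over the 4 pairs of groups that also include Scr against EV, these exact p-values were 0.667, 1.0 and 0.6.

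For OE against EV, the share in the OE table was 4.91, 4.19 and 4.25% in the EV libraries and 5.08, 4.42 and 4.79% in the OE libraries. EV 1 lay above 2 of the 3 OE libraries, so the groups overlapped. The means were 4.45% ± 0.402 (SD, n = 3) and 4.76% ± 0.334 (SD, n = 3), and the difference of 0.315 percentage points had p = 0.3 by a two-sided exact permutation test. The KD table gave the same direction, with 4.45, 3.82 and 3.93% in EV and 4.58, 4.17 and 4.45% in OE (difference 0.331 percentage points, exact permutation p = 0.3).

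Among the comparisons tested, Scr against EV had the largest difference in mean share in either table, and it did not pass either. Scr was lower than EV by 0.579 percentage points on average in the KD table (exact permutation p = 0.2, adjusted 0.6). The Scr libraries held 4.12, 3.87 and 3.29% against 4.91, 4.19 and 4.25% in EV in the OE table, without overlap, a difference of -0.691 percentage points (exact permutation p = 0.1, the smallest possible, adjusted 0.4). In that table KD4 held 3.72, 3.74 and 3.51% and KD6 3.65, 4.05 and 4.0%, so all 9 libraries of hairpin-bearing lines lay below all 6 libraries of the EV and OE lines. These sets overlapped in the KD table, through Scr 1 at 3.87% and EV 2 at 3.82%. The kind of vector, its selection drug and the lines that carry it cannot be told apart in this design. Of the 5 groups, OE had the highest mean in both tables and EV the next.

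**Figure D3:**
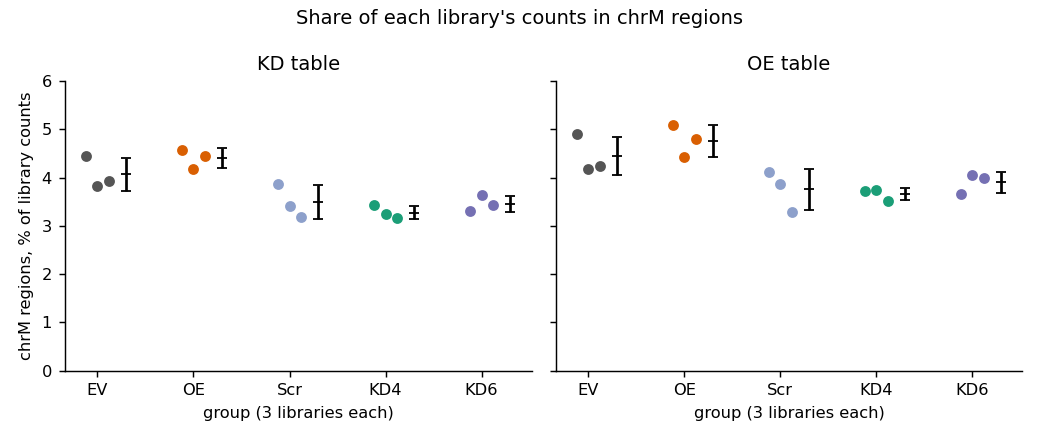
Percentage of each library's counts in chrM regions, by group, in the KD table (left) and the OE table (right); points are libraries and bars are the mean ± SD of 3 libraries. Group means in the KD table run from 3.28% in KD4 to 4.40% in OE.

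Regions were then tested one by one, with edgeR's quasi-likelihood test fitted over all regions of a table and a false discovery rate (FDR) of 0.05 after Benjamini-Hochberg adjustment. None of the 12 chrM regions passed for the knockdown lines together against Scr, where 0.271% of the 44289 tested regions passed. One chrM region had an unadjusted p under 0.05, and DESeq2 also called 0 with 1 at that level. The median log2 fold change of the 12 regions was -0.098, against -0.005 for all regions tested, and 2 of the 12 were above zero. The *mt-Co1* region (chrM:5429-6639) had 11257, 11103 and 8458 CPM in Scr, 9572, 11279 and 11660 CPM in KD4 and 11807, 10781 and 9332 CPM in KD6. The groups overlapped, and the log2 fold change was 0.063 ± 0.14 (SE), with a 95% interval from -0.24 to 0.36. The wider *mt-Rnr2* region (chrM:1403-1929) had 8222, 6683 and 8419 CPM in Scr, 8061, 5914 and 5139 CPM in KD4 and 5731, 8616 and 8479 CPM in KD6. KD4 3 and KD6 1 were the lowest of these 9 libraries and KD6 2 the highest, and the log2 fold change was -0.16 ± 0.15 (SE), with a 95% interval from -0.48 to 0.16. Over the 12 regions the log2 fold changes ran from -0.26 to 0.063 and the intervals from -0.55 to 0.37.

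The region with the single unadjusted p under 0.05 was chrM:15697-15984, beyond *mt-Cytb*. It had 228, 163 and 208 CPM in Scr, 157, 145 and 140 CPM in KD4 and 155, 207 and 202 CPM in KD6. All 3 KD4 libraries lay below all 3 Scr libraries, whereas KD6 overlapped with Scr. For the knockdown lines together the log2 fold change was -0.26 ± 0.12 (SE; edgeR FDR 0.597). For KD4 alone it was -0.44 ± 0.14 (SE; edgeR FDR 0.237), and it did not pass.

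By line, edgeR also called 0 of 12 chrM regions in KD4 against Scr, where 0.576% of all regions passed, with 1 chrM region at an unadjusted p under 0.05. In KD6 against Scr it called 0 of 12, against 0.149% of all regions, with 0 at that level. KD6 and KD4 differed at 0 of 12, against 0.224% of all regions, with 1 chrM region at that level. DESeq2 called 0 in all 3 comparisons, with the same counts at an unadjusted p under 0.05. The log2 fold changes of the 12 regions ran from -0.44 to 0.070 in KD4 and from -0.13 to 0.18 in KD6. These comparisons share the Scr libraries.

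In OE against EV, edgeR called 0 of 12 chrM regions, with 0.0106% of the 37765 tested regions called in the whole table. No chrM region had an unadjusted p under 0.05 in edgeR, and DESeq2 called 0 with 1 at that level. The 12 log2 fold changes ran from -0.27 to 0.25, with a median of -0.14 against 0.021 for all regions, and their 95% intervals from -0.76 to 0.72. The *mt-Rnr2* region (chrM:1195-2581) had 12873, 13423 and 13887 CPM in EV and 18131, 15382 and 17797 CPM in OE. All 3 OE libraries were above all 3 EV libraries in CPM, yet the edgeR log2 fold change of 0.25 ± 0.22 (SE) had an FDR of 0.725. The *mt-Co1* region (chrM:5438-6598) had 13542, 10221 and 9912 CPM in EV and 11218, 9894 and 8955 CPM in OE, with overlapping groups and a log2 fold change of -0.27 ± 0.23 (SE; edgeR FDR 0.715). The *mt-Nd1* region (chrM:2842-3612) had 5781, 4532 and 4445 CPM in EV and 4829, 4314 and 4479 CPM in OE, which overlapped as well (log2 fold change -0.23 ± 0.20 SE). The effect of overexpression and the effect of knockdown were compared directly in a fit of all 15 libraries. Their difference passed at 0 of 12 chrM regions in edgeR, where 0.0658% of 37967 regions passed, with 0 at an unadjusted p under 0.05, and DESeq2 gave 0 and 0 as well.

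Calls on chrM appeared between the control lines, where the kind of vector and its selection drug cannot be told apart. In Scr against EV, 4 of 12 chrM regions were lower in Scr at an FDR of 0.05 and 0 were higher, in a comparison where 6.21% of all 37967 tested regions were called. The *mt-Co3* region (chrM:8747-9270) had 1769, 1635 and 1540 CPM in EV and 1048, 1245 and 892 CPM in Scr, without overlap. Its log2 fold change was -0.76 ± 0.18 (SE; edgeR FDR 0.0261). The *mt-Co1* region (chrM:5438-6598) fell from 13542, 10221 and 9912 CPM in EV to 7752, 8248 and 5423 CPM in Scr, a log2 fold change of -0.78 ± 0.22 (SE; edgeR FDR 0.0406). The *mt-Nd1* region (chrM:2842-3612) had 4126, 3436 and 2530 CPM in Scr, all below the 3 EV libraries, with a log2 fold change of -0.67 ± 0.19 (SE; edgeR FDR 0.0447). The fourth, chrM:7874-8481, lay between *mt-Co1* and *mt-Co3* and changed by -0.68 ± 0.18 (SE; edgeR FDR 0.0339). It and the *mt-Co3* region are among the 3 whose counts cannot be separated from chromosome 1. The called *mt-Co1* region was overlapped by 117 bases by the mirrored position of another chromosome 1 region, chr1:24654832-24655176.

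In the same comparison the *mt-Rnr2* region (chrM:1195-2581), with 15574, 14396 and 14112 CPM in Scr, had a log2 fold change of 0.022 ± 0.18 (SE; edgeR FDR 0.949). The region before it, chrM:135-838, gave -0.028 ± 0.19 (SE). The *mt-Nd4* and *mt-Cytb* regions had values of -0.42 and -0.51 and did not pass (edgeR FDR 0.109 and 0.0977). Nor did chrM:7126-7541, at -0.50 ± 0.16 (SE; edgeR FDR 0.0644). The regions chrM:4037-4232, chrM:11900-13474 and chrM:15699-15985 had values from -0.27 to -0.24 and did not pass. Of the 12 regions, 7 had an unadjusted p under 0.05 in edgeR. The median over the 12 regions was -0.46 against 0.025 for all regions. These calls depended on the libraries included. Without EV 1, EV 2 or Scr 3 edgeR called 0 chrM regions, and without Scr 1 it called 1. Without Scr 2 it called 3 and without EV 3 it called 5. Calls over all regions also moved, from 2359 to 167 without EV 1, 396 without EV 2 and 279 without Scr 3. They numbered 453 without Scr 1, 3567 without Scr 2 and 3364 without EV 3. DESeq2 called 7 chrM regions and 3637 of all regions, and edgeR without TMM scaling 2 and 1707. Scaling also moved the split of all calls, from 979 higher and 1380 lower in Scr with TMM to 1179 higher and 528 lower without it and to 1683 higher and 600 lower with upper-quartile scaling. Among the regions of the KD table, which differ, 2 of 12 passed, where 2665 of all 44444 tested regions were called.

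**Figure D4:**
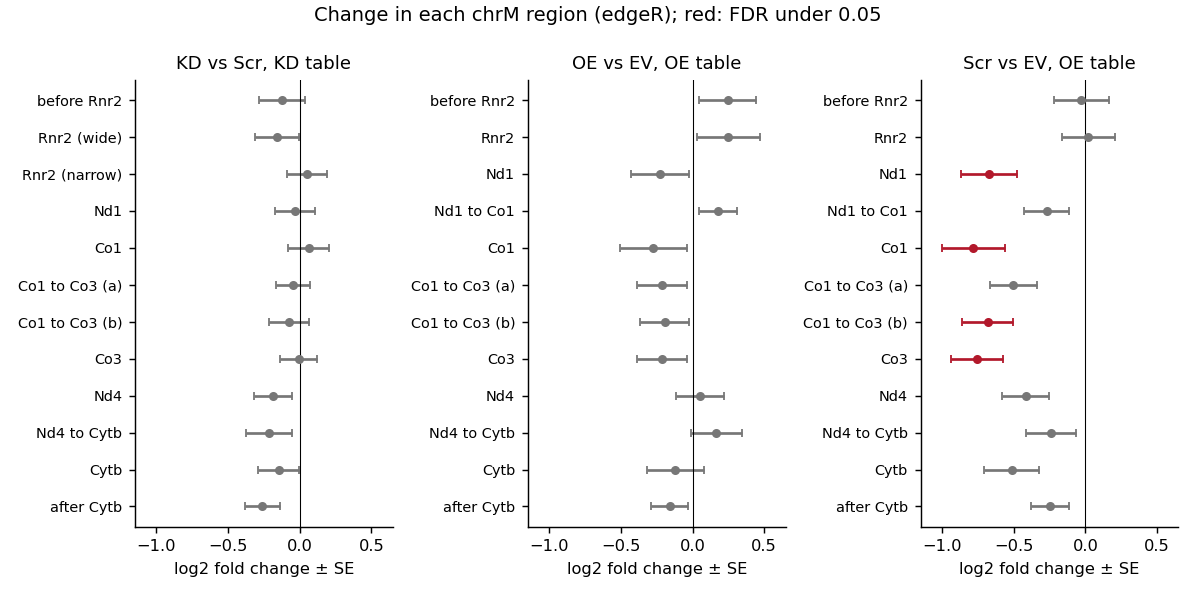
Log2 fold change ± SE (edgeR) of each chrM region in order along chrM, for knockdown against Scr in the KD table, OE against EV in the OE table and Scr against EV in the OE table; red marks an FDR under 0.05. Red points appear in the third panel only, at *mt-Nd1*, *mt-Co1*, the second of the regions between *mt-Co1* and *mt-Co3*, and *mt-Co3*, with values from -0.78 to -0.67.

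The profile along chrM was compared apart from its total level, as the percentage of a library's chrM counts in each region. These percentages add to 100 in a library, so a higher share of one region lowers the others. For the knockdown lines against Scr, 0 of 12 regions passed an exact permutation test adjusted over the 12 regions (smallest adjusted p = 0.886). The *mt-Co1* region (chrM:5429-6639) held 29.4% ± 2.97 (SD, n = 3) of chrM counts in Scr and 32.0% ± 4.23 (SD, n = 6) in the knockdown lines (exact permutation p = 0.357). The wider *mt-Rnr2* region (chrM:1403-1929) held 22.4% ± 3.61 (SD, n = 3) and 20.6% ± 3.77 (SD, n = 6) (exact permutation p = 0.524). These differences were smaller than the spread within the groups.

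In OE against EV, no adjusted p could go below 0.1 with 3 libraries on each side, and the smallest obtained by the exact permutation test was 0.15. The *mt-Rnr2* region (chrM:1195-2581) held 26.2, 32.1 and 32.7% of chrM counts in EV and 35.7, 34.8 and 37.2% in OE. The *mt-Co1* region (chrM:5438-6598) held 27.6, 24.4 and 23.3% in EV and 22.1, 22.4 and 18.7% in OE. The *mt-Nd1* region (chrM:2842-3612) held 11.8, 10.8 and 10.5% in EV and 9.5, 9.8 and 9.4% in OE. The groups did not overlap at any of these 3 regions, with *mt-Rnr2* higher in OE and *mt-Co1* and *mt-Nd1* lower, and each had an exact permutation p = 0.1. The *mt-Co3* and *mt-Cytb* regions were also lower, at 3.71% and 3.22% for *mt-Co3* and 8.34% and 7.76% for *mt-Cytb* in EV and OE (means, n = 3, exact permutation p = 0.1 for each). For the *mt-Nd4* region, EV had 2.32% ± 0.139 (SD, n = 3) and OE 2.43% ± 0.137 (SD, n = 3; exact permutation p = 0.5). In the KD table *mt-Co3* had 4.90% in EV and 4.46% in OE (means, n = 3, exact permutation p = 0.3). There *mt-Cytb* had 6.87% and 6.73% (means, n = 3, exact permutation p = 0.4). The wider *mt-Rnr2* region and the *mt-Co1* and *mt-Nd1* regions kept their directions in the KD table (exact permutation p = 0.1 for each). Scr and EV differed in the same direction as OE and EV at *mt-Rnr2*, *mt-Co1* and *mt-Nd1* in the OE table. From EV to Scr the mean went from 30.3 to 39.3% at *mt-Rnr2*, from 25.1 to 18.9% at *mt-Co1* and from 11.02 to 8.87% at *mt-Nd1* (exact permutation p = 0.1 for each, adjusted 0.171). In the KD table the directions were the same, with p = 0.1 by exact permutation at the wider *mt-Rnr2* region and at *mt-Co1*. There *mt-Nd1* went from 13.8 to 12.4% (exact permutation p = 0.4). These contrasts share the EV libraries, and whether they differ in size was not tested.

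The regions fell into sets that varied together from library to library. Over the 15 libraries of the KD table, log2 CPM of the region before *mt-Rnr2* correlated with that of the wider *mt-Rnr2* region at a Pearson r of 0.967. The region between *mt-Nd4* and *mt-Cytb* correlated with it at 0.936, and the region beyond *mt-Cytb* at 0.724. The *mt-Nd1*, *mt-Co3* and *mt-Cytb* regions correlated with the *mt-Co1* region at 0.861, 0.922 and 0.744, and with *mt-Rnr2* at 0.18, -0.057 and 0.36. The *mt-Rnr2* and *mt-Co1* regions themselves gave an r of -0.15, and *mt-Nd4* went about equally with both, at 0.634 and 0.628. The narrow region chrM:2316-2562 lies in the same gene as chrM:1403-1929, but the pair had an r of 0.090. In the OE table the *mt-Rnr2* and *mt-Co1* regions gave -0.18, *mt-Nd1* and *mt-Co1* 0.928, and the region before *mt-Rnr2* and *mt-Rnr2* 0.867. Other values with *mt-Rnr2* were lower there, at 0.783 for the region between *mt-Nd4* and *mt-Cytb* and 0.510 beyond *mt-Cytb*. With *mt-Co1*, *mt-Co3* gave 0.947 and *mt-Cytb* 0.829. The *mt-Nd4* region gave 0.576 with *mt-Rnr2* and 0.578 with *mt-Co1*. These correlations describe libraries of 5 groups with a common denominator, the library total, and carry no test.

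The ratio of counts in the *mt-Rnr2* and *mt-Co1* regions, a measure chosen after these values were seen, was lowest on average in EV and varied widely within the knockdown lines. It was 0.379, 0.463 and 0.503 in EV and 0.605, 0.590 and 0.785 in OE in the KD table. Among the hairpin lines it was 0.730, 0.602 and 0.995 in Scr, 0.842, 0.524 and 0.441 in KD4 and 0.485, 0.799 and 0.909 in KD6. KD4 1, KD6 2, KD6 3 and Scr 3 were high and KD4 2, KD4 3 and KD6 1 low, so each knockdown line held both high and low libraries. All 3 EV ratios lay below every OE and Scr ratio, in both tables, but KD4 3 and KD6 1 lay within the EV range in both. The mean log2 ratio was higher in OE than in EV by 0.56 in the KD table and by 0.50 in the OE table, without overlap in either (exact permutation p = 0.1, the smallest possible, adjusted over 6 comparisons 0.3). Scr was higher than EV by 0.77 in the KD table and by 0.79 in the OE table, again without overlap (exact permutation p = 0.1, adjusted 0.3). These comparisons share the EV libraries. Knockdown and Scr differed by -0.25 in the KD table (exact permutation p = 0.44).

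A nuclear region varied in part with this ratio. The most heavily counted nuclear region of the KD table was chr17:40154075-40154293, which held between 0.236 and 0.796% of a library's counts. The log2 of its share correlated with the log2 ratio of *mt-Rnr2* to *mt-Co1* at a Pearson r of 0.766 (Spearman 0.764) over the 15 libraries. In the OE table the corresponding region, chr17:40153966-40156541, held between 3.64 and 10.8%, with an r of 0.783 (Spearman 0.811). KD6 3 departed from this relation, with the highest ratio of the OE table, 2.71, at a share of 6.08%. Its share was 3.89, 5.12 and 6.51% in EV and 5.98, 7.13 and 8.35% in OE. Its part in the differences between groups in the *mt-Rnr2* and *mt-Co1* regions was not tested.

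**Figure D5:**
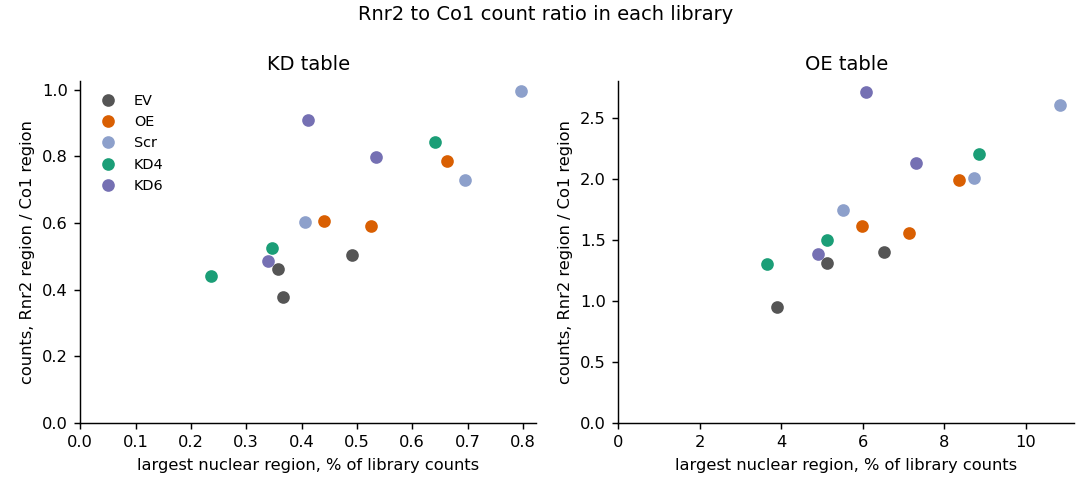
Ratio of counts in the *mt-Rnr2* region to counts in the *mt-Co1* region (vertical axis) against the percentage of library counts in the largest nuclear region (horizontal axis), 1 point per library, colored by group, for the KD table (left) and the OE table (right). The ratio ranges from 0.379 to 0.995 in the KD table and from 0.951 to 2.71 in the OE table, and the EV libraries lie in the lower part of both plots.

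The nuclear regions whose log2 CPM followed the summed chrM counts most closely were picked among regions of at least 5 CPM on average. Of 23812 regions compared over 15 libraries of the KD table, these were chr6:51439799-51440207 (Pearson r 0.961, 250 CPM), the chromosome 1 partner chr1:24653206-24653774 (0.950) and chr2:180546258-180547428 (0.943). Of 18749 compared in the OE table, they were chr6:51439798-51440134 (0.977, 156 CPM), chr2:120364139-120364464 (0.950) and chr3:68943657-68944167 (0.945). The chromosome 6 region led in both tables and was itself heavily counted, against a median of 5.68 CPM for the KD table.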

How the data were processed

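The methods of the study state that the authors tagmented nuclei and used Partek Flow, with Bowtie2 as the aligner (build mm39) and MACS as the peak caller. STAR 2.7.8a stands in the processing notes of the submitters, and RNA extraction in the labels. Which aligner was used, and whether all reads came from ATAC-seq, is therefore uncertain. The rule by which reads that match several places were divided was not stated. The authors deposited expected counts without normalization, and these were rounded for edgeR and DESeq2, as the tests had been planned for whole counts. Another 15 columns of each table match no sample and were not used.

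The members, gene intervals and lists were chosen with earlier results of these data known. Every chrM region was reported, and regions were named by overlap of at least 1 base. A list of nuclear genes of mitochondrial DNA upkeep, and the full set of chrM genes, needed an mm39 annotation and were not applied. Regions were tested with edgeR 4.0.16 (TMM, its low-count filter, quasi-likelihood test) in R 4.3.3. Scr, KD4 and KD6 were fitted together, OE and EV alone, and Scr against EV and the difference of effects in a fit of all 15 libraries. DESeq2 1.42.0 was an alternative. Shares were compared by exact permutation tests of means, two-sided. Other scalings, filters, denominators, region sets, a replicate block and leaving out each library were also tried. The tables were tested separately. Replicates differed by more than counting noise, with a smallest ratio of 3.55 over 30 pairs, so none was counted as a repeat. The scripts were tested on simulated data. Counting intervals were not used, since spread between libraries exceeded counting error.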

Additional observations from a re-analysis of the deposited data

How the results depend on the processing

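The chrM share passed no test under any alternative, but only knockdown against Scr could, as 3 against 3 gives no exact p below 0.1. For knockdown against Scr it changed direction with the regions of the other table, to 0.019 percentage points (exact permutation p = 0.929), and ranged from -0.276 to 0.071 when a library was left out. For KD6 against Scr it was 0.142 with the other table and ranged from -0.186 to 0.161 without a library. Leaving out Scr 1 turned both, and leaving out KD6 1 turned the second. Leaving out the 3 regions shared with chromosome 1, an alternative chosen after seeing the data, gave -0.108 for knockdown, 0.349 for OE against EV and -0.444 for Scr against EV. Counts of called chrM regions stayed at 0 for knockdown against Scr, each line, KD6 against KD4, OE against EV and the difference of effects under every alternative run. For Scr against EV, called chrM regions numbered 4, but 2 without TMM, 7 with DESeq2, 2 with the other table and 0 to 5 without a library. Calls over all regions moved too, from 2359 to 1707 without TMM, 3637 with DESeq2 and 2665 with the other table. They ranged from 167 to 3567 without a library. Without TMM the median of all regions in that comparison moved from 0.025 to 0.13 and that of chrM from -0.46 to -0.34, and upper-quartile scaling gave 0.15 and -0.33. In OE against EV, edgeR gave 3 chrM regions at an unadjusted p under 0.05 without TMM, 3 with the other table and 1 without EV 1. The other edgeR alternatives gave 0. Its chrM median of -0.14 moved to -0.033 without TMM, -0.018 with the other table and 0.019 without EV 1. It was -0.22 without EV 2 and -0.21 without EV 3.

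Replicate numbers were not taken as pairs. The correlations of same-numbered deviations ran from -0.221 to 0.279 in the knockdown fit, with 3 of 9 pairs over 0.1, and from -0.049 to 0.324 in the OE fit, with 2 of 3 pairs over 0.1. With a replicate block the chrM share differed by -0.121 for knockdown (exact permutation p = 0.481). For OE it differed by 0.315 (exact permutation p = 0.25, the smallest that 3 pairs allow), with OE above the same-numbered EV library in all 3. No chrM region was called for either, where 99 and 3 of all regions were called. Scr against EV had 6 chrM calls, where 4039 of all 37967 tested regions were called.

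Some small log2 fold changes changed sign. In knockdown against Scr with the other table, chrM:2316-2562 gave -0.044, chrM:2858-3587 0.064, chrM:7131-7536 0.041, chrM:7897-8471 0.025 and chrM:8789-9265 0.085. In OE against EV with the other table, chrM:14208-15100 gave 0.010. In Scr against EV, chrM:135-838 gave 0.094 without TMM, 0.10 with upper-quartile scaling, 0.020 with at least 50 counts in 3 libraries and 0.23 with the other table, and chrM:11900-13474 gave 0.0014 with the other table. Without a library, knockdown against Scr ranged from -0.059 to 0.26 in chrM:2316-2562, from -0.18 to 0.17 in chrM:2858-3587, from -0.082 to 0.14 in chrM:5429-6639, from -0.15 to 0.035 in chrM:7131-7536, from -0.23 to 0.11 in chrM:7897-8471, from -0.098 to 0.070 in chrM:8789-9265 and from -0.31 to 0.061 in chrM:14477-15100. OE against EV ranged from -0.061 to 0.23 in chrM:10849-11444 and from -0.22 to 0.076 in chrM:14208-15100, and Scr against EV from -0.13 to 0.15 in chrM:135-838 and from -0.026 to 0.052 in chrM:1195-2581. The causes were not tested.

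Counts at chrM were high in every library, and the number of libraries limits the exact tests, since 3 against 3 cannot give a p below 0.1.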
